A study of Homo sapiens with 8 samples.

Results

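Heparan sulfate and chondroitin sulfate are long sugar chains that decorate cell-surface and matrix proteoglycans. Both chains start from the same xylose linker on a core protein, are then extended by separate polymerases, and are finally sulfated at defined positions. The sulfation pattern sets which growth factors, morphogens and matrix proteins a chain binds, and glypican 3 is a known surface antigen of embryonal tumors of the kidney and liver. The genes examined here were the protein-coding genes whose symbols name the syndecans, glypicans, xylosyltransferases, exostosins, chondroitin synthases and polymerizing factors, the NDST, HS2ST, HS3ST, HS6ST and CHST sulfotransferases and the SULF sulfatases. There were 55 of them among the 69215 genes of the count tables, comprising 10 core proteins, 13 genes of chain synthesis, 22 sulfotransferases of heparan or chondroitin sulfate, 8 CHST enzymes that act on other glycans and 2 extracellular endosulfatases.

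RNA was sequenced from G401, an established rhabdoid kidney tumor line. These cells have no SMARCB1, which is normally part of the core of mSWI/SNF chromatin remodelling complexes. Both lines compared were Tet-On derivatives of G401, in which doxycycline (Dox) switches on SMARCB1 in one and GFP, a control protein, in the other. Each was treated with 0.1 µg/ml Dox or with its solvent dimethylsulfoxide (DMSO) for 12 h, which gave the groups GFP DMSO, GFP Dox, SMARCB1 DMSO and SMARCB1 Dox with 2 libraries each. Every library came from pooled plates of cells, nothing in the sources used here said whether a line was a single clone, and no source tied the replicates to separate starting cultures, so p-values measure the spread between these libraries only.

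Libraries held 29632090 to 37597477 counts assigned to genes. SMARCB1 itself had 0 counts in all 4 GFP-line libraries, 10 and 21 in SMARCB1 DMSO and 30474 and 29383 in SMARCB1 Dox, as the labels give it. Of the markers checked, VIM was present at 678 to 1310 CPM (counts scaled to a common library total), KRT8 at 330 to 573 and KRT18 at 212 to 420, whereas the leukocyte gene PTPRC had at most 2 counts and the endothelial gene PECAM1 at most 3 in a library. EPCAM had at most 7 counts and CDH1 between 7 and 31. Transcripts of the mitochondrial genome made up 18.9% to 27.9% of each library, the most in SMARCB1 DMSO replicate 1, and the counts of members called below did not change when these genes were removed.

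The 55 genes together took 0.236% to 0.245% of the counts in the GFP line, 0.258% and 0.27% in SMARCB1 DMSO and 0.29% and 0.295% in SMARCB1 Dox. An expression filter retained 36 of them, among 15931 genes tested. A gene could pass it through high counts in a single group, as CHST13 and GPC5 did in the SMARCB1 line and HS3ST6 in the GFP line, so counts over the 36 describe tested members and not the whole set. The 19 that did not pass included 5 genes with 0 counts in every library, which were the chondroitin synthase CHSY3 and the 3-O-sulfotransferases HS3ST1, HS3ST2, HS3ST4 and HS3ST5. For these genes a floor of 3 counts, which covers counting error only, allows up to 0.0782 to 0.103 CPM depending on the library. The other 14 were GPC6, XYLT1, CSGALNACT1, NDST3, NDST4, HS6ST3, HS3ST3A1, CHST15, CHST1, CHST4, CHST5, CHST6, CHST8 and CHST9, with at most 17 counts in any library (CHST5).

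For several steps of the pathway a single paralog supplied nearly all of the measured level. Levels were compared between genes as CPM per kb of exon, where exon length is the union of all annotated exons. This lowers the value of genes with long alternative exons such as EXT2 and EXTL3. By this measure the most abundant member of all was GPC3 at 108 CPM per kb averaged over the 4 groups, ahead of SDC4 at 59.7, NDST1 at 52.4 and SDC2 at 40.7. Between 81.5% and 87.4% of the summed glypican level came from GPC3 in each group. Likewise XYLT2 supplied at least 99.8% of the xylosyltransferase level, NDST1 at least 99.6% of that of the N-deacetylase/N-sulfotransferases and SULF2 at least 98.9% of that of the endosulfatases. For NDST2 this comparison is limited by counting, because 96.5% of the 50-base stretches of its transcript also occur in an overlapping readthrough gene, whose shared reads are not assigned to either.

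**Figure D1:**
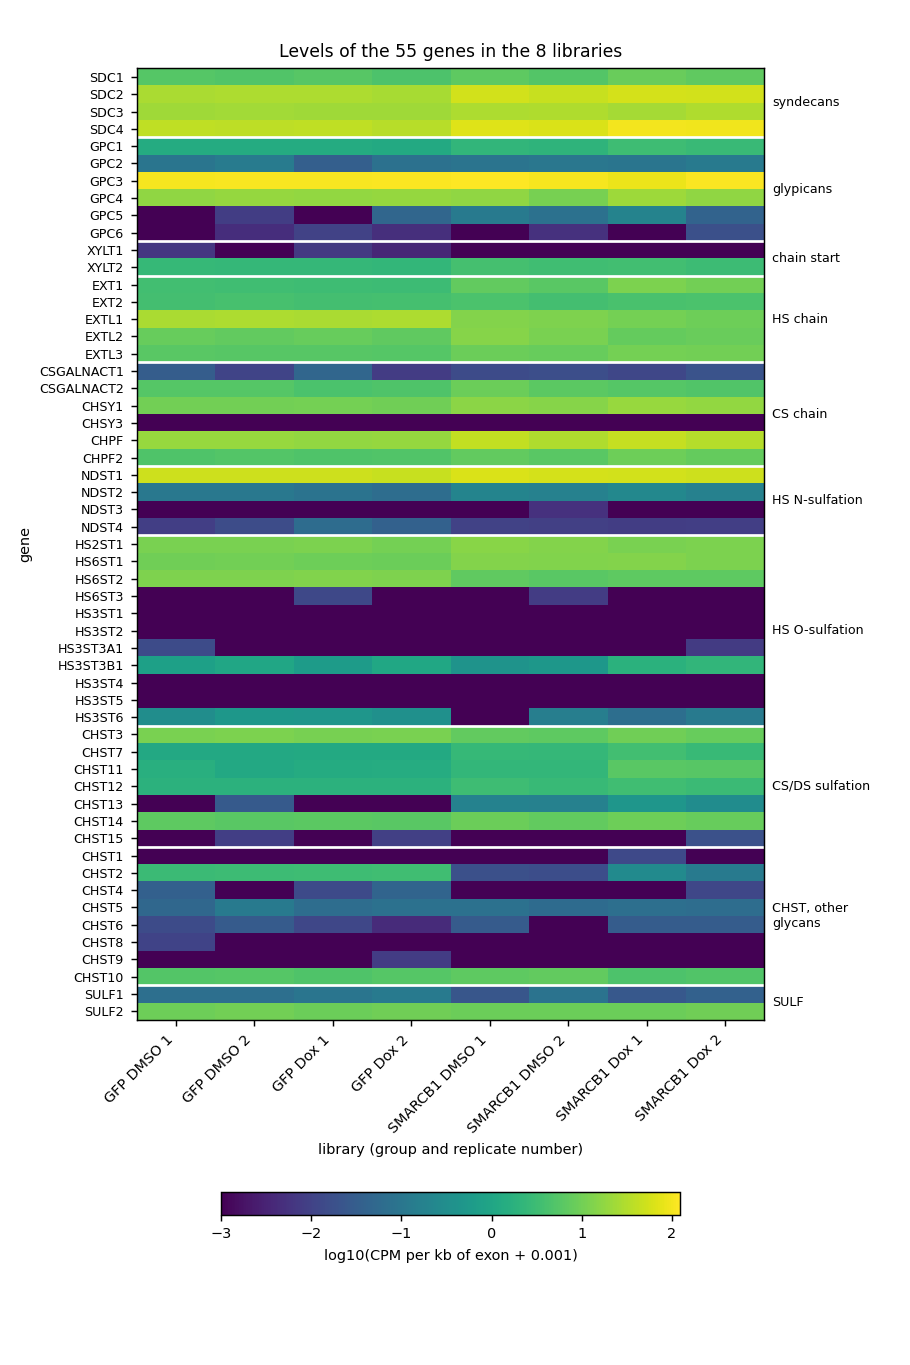
Level of each of the 55 genes (rows, grouped by role, HS heparan sulfate, CS chondroitin sulfate, DS dermatan sulfate) in each of the 8 libraries (columns), as log10 of CPM per kb of exon plus 0.001. GPC3 is the brightest row in all libraries but SMARCB1 Dox replicate 1, where SDC4 is, 5 genes are at 0 throughout, and CHST2 is bright in the 4 GFP-line libraries and dark in the SMARCB1 line.

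Induction of SMARCB1 was followed by changes in 17 of the 36 tested genes, 12 higher and 5 lower, in the comparison of SMARCB1 Dox with SMARCB1 DMSO. These genes made up 47.2% of the tested members, against 14% of all genes tested (8.33% higher and 5.69% lower). Over the 36 tested members, called or not, the median log2 fold change was 0.16, against -0.004 over all genes. In the core proteins 4 of 9 tested genes rose and 0 fell, in chain synthesis 4 of 10 rose and 3 fell, and among the heparan and chondroitin sulfotransferases 3 of 13 rose and 1 fell. Of the remaining genes, CHST2 rose and CHST10 fell, and neither endosulfatase passed the test. Counted by libraries that did not overlap, 15 genes were higher in both induced libraries, against 25.9% of all genes, and 6 were lower, against 25.2%. Calls were made with edgeR's quasi-likelihood test at a Benjamini-Hochberg adjusted p under 0.05. Since total RNA of a culture was measured, more RNA per cell and more cells that express a gene cannot be told apart.

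Dox in the GFP line changed 0 of the 36 genes by the same test, against 0% of all genes tested, and 0 were called by DESeq2. At an unadjusted p under 0.05 the edgeR quasi-likelihood test gave 1 gene, against 1.67% of all genes. This was CSGALNACT2, with a log2 fold change of -0.27 and an adjusted p of 1 in edgeR. In the SMARCB1 line the corresponding count was 18 of 36, against 26% of all genes. The difference between the Dox effects of the lines, tested as an interaction, was called for 6 of the 36 genes, against 4.71% of all genes (3.07% more positive and 1.64% more negative in the SMARCB1 line). These were HS3ST3B1, CHST11, CHST2, EXT1 and SDC4, which increased more in the SMARCB1 line, and EXTL2, which decreased more there. The remaining 11 genes called in the SMARCB1 line were not called for the difference. When a library was left out, EXTL1, GPC4 (0.80, without SMARCB1 DMSO replicate 1), EXTL3 (0.41, without the same library) and CHST3 (0.48, without SMARCB1 Dox replicate 2) were called as well.

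The lines also differed before induction. SMARCB1 DMSO differed from GFP DMSO in 28 of the 36 genes, 21 higher and 7 lower, against 32% of all genes (16.3% higher and 15.7% lower). The members counted here include CHST13 and GPC5 as higher and HS3ST6 as lower. These genes passed the expression filter through the line where they were high, so the filter favoured their direction. Libraries did not overlap for 23 members that were higher, against 33.1% of all genes, and for 7 that were lower, against 31.6%. The median log2 difference was 0.40 over the members and 0.015 over all genes. Under scaling to library totals the median over all genes moved to -0.101, with 17 members higher and 7 lower, against 33.8% of all genes called in that fit. This comparison sets the lines against each other without Dox, so the line background and the 10 and 21 SMARCB1 counts of SMARCB1 DMSO cannot be told apart. It shares the SMARCB1 DMSO libraries with the Dox comparison, and values of both are given side by side below without relating them.

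**Figure D2:**
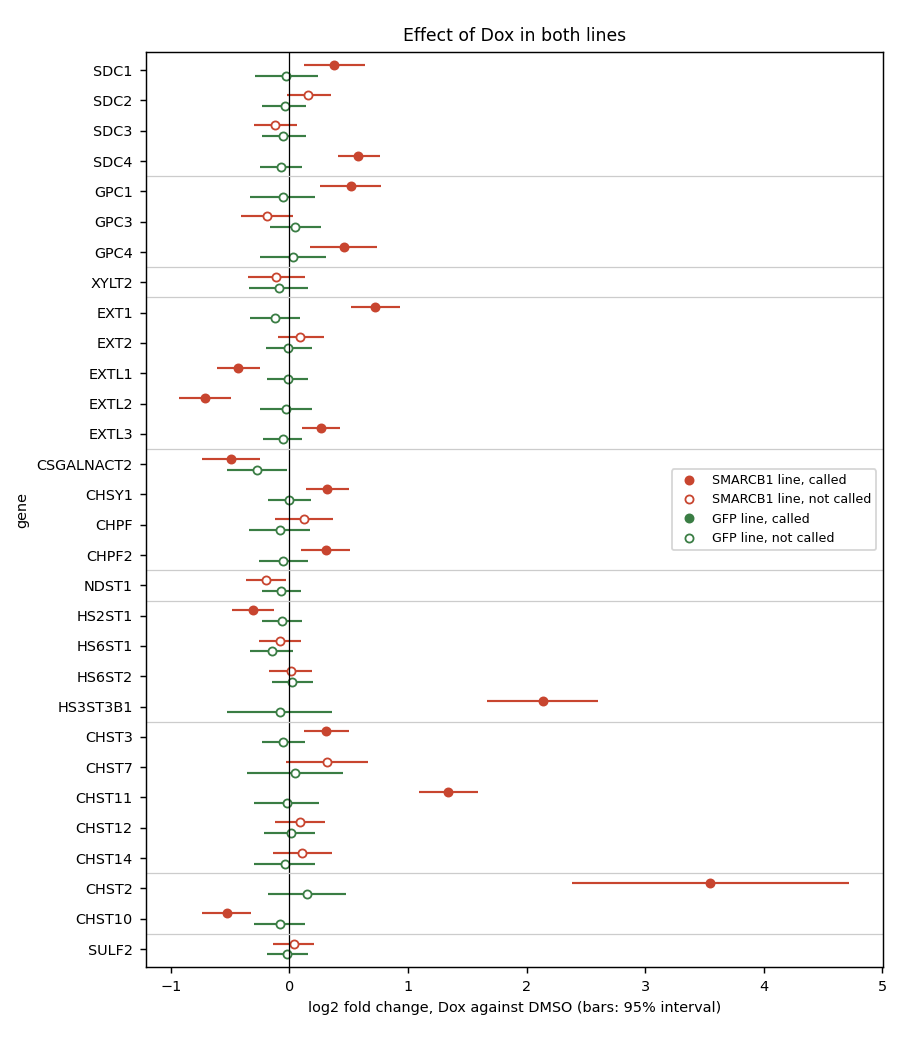
Log2 fold change of Dox against DMSO in the SMARCB1 line (red) and the GFP line (green) for the 30 tested genes whose CPM averaged 1 or more, with 95% intervals from the edgeR fit. Filled points passed an adjusted p of 0.05, all of them in the SMARCB1 line, with CHST2, HS3ST3B1 and CHST11 farthest to the right and EXTL2 farthest to the left.

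Among the core proteins, the syndecans SDC4 and SDC1 and the glypicans GPC1 and GPC4 rose with SMARCB1 induction. Syndecans span the membrane, while glypicans are held in its outer leaflet by a lipid anchor. SDC4, a syndecan of focal adhesions (chr20:45325288-45348424, minus strand), stood at 177 and 161 CPM in SMARCB1 DMSO and at 256 and 251 CPM in SMARCB1 Dox. In the GFP line it was at 106 and 100 CPM with DMSO and 105 and 91.3 CPM with Dox. The induced libraries were thus the highest of all 8, and the GFP-line libraries of both treatments lay in the same range below SMARCB1 DMSO. The increase was 1.5-fold (log2 0.58, 95% interval 0.41 to 0.76, adjusted p = 5.04e-05), and the difference from the GFP line was 0.66 (adjusted p = 0.00199).

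SDC1, the syndecan typical of epithelia, measured 24.2 and 19.4 CPM in SMARCB1 DMSO and 30.9 and 25.8 CPM in SMARCB1 Dox, with 17 to 20.6 CPM in the GFP line. GPC1, a widely expressed glypican, was at 14.4 and 13 CPM before and 20.9 and 18.3 CPM after induction, with 7.98 to 8.9 CPM in the GFP line. Both genes were higher in each induced library than in any other library, with log2 fold changes of 0.38 (adjusted p = 0.0447) and 0.52 (adjusted p = 0.00592). GPC4 was at 85.7 and 54.6 CPM in SMARCB1 DMSO and 106 and 86 CPM in SMARCB1 Dox (log2 0.46, adjusted p = 0.027), and its GFP-line values of 85.7 to 95.4 CPM lay within this range. These 3 calls depended on which libraries were kept. For all 3 genes replicate 1 was the higher library in both treatments of the SMARCB1 line. The calls held in a fit with the replicate number as a block. Without SMARCB1 DMSO replicate 2, the log2 fold change was 0.23 for SDC1, 0.44 for GPC1 and 0.17 for GPC4. Leaving out SMARCB1 Dox replicate 1 instead gave 0.25, 0.42 and 0.30, and all 6 of these values missed the threshold (adjusted p 0.0588 to 0.391).

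GPC3, the most abundant member, was not called. It measured 400 and 346 CPM in SMARCB1 DMSO, 281 and 371 CPM in SMARCB1 Dox, 339 and 365 CPM in GFP DMSO and 354 and 377 CPM in GFP Dox, so that all groups overlapped. Its log2 fold change with SMARCB1 was -0.19 (95% interval -0.41 to 0.03), and without SMARCB1 Dox replicate 2, which left the lower of the induced libraries, it was -0.41 and passed the threshold (adjusted p = 0.0152). GPC3 and GPC4 are neighbours on chromosome X, with HS6ST2 nearby. SDC2, the syndecan typical of mesenchymal cells, and SDC3, that of neural tissue, were not called either, with log2 fold changes of 0.16 (-0.02 to 0.35) and -0.12 (-0.30 to 0.06). SDC2 passed the threshold after scaling to library totals (0.26, adjusted p = 0.0497) and without SMARCB1 DMSO replicate 1 (0.30, adjusted p = 0.0487). GPC2 and GPC5 had at most 19 and 24 counts in a library, and their intervals spanned -0.97 to 1.28 and -1.28 to 1.69.

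Before induction, 5 of the 9 tested core proteins were higher in the SMARCB1 line and 1 was lower, against 16.3% and 15.7% of all genes. The 5 include GPC5, which passed the expression filter through the SMARCB1 line, so the filter favoured a higher call for it. SDC2 was at 113 and 120 CPM in GFP DMSO and 222 and 188 CPM in SMARCB1 DMSO (log2 0.81, adjusted p = 2.19e-07). With Dox it was at 120 and 107 CPM in the GFP line, which overlapped GFP DMSO, and at 233 and 226 CPM in the SMARCB1 line, both above SMARCB1 DMSO. SDC4 (0.71), GPC1 (0.65) and SDC3 (0.34) were also higher. GPC5 had 0 and 1 counts in GFP DMSO and 13 and 9 in SMARCB1 DMSO, a ratio of 25.6 with a counting interval of 4.13 to 1050. GPC4 was the lower gene, at -0.37 (adjusted p = 0.0417), although its libraries overlapped. The summed syndecan level was 96.5 and 97.3 CPM per kb in GFP DMSO, 88.8 and 97.9 in GFP Dox, 144 and 158 in SMARCB1 DMSO and 188 in both SMARCB1 Dox libraries. The summed glypican level overlapped between all groups, at 110 to 141 CPM per kb.

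In chain synthesis, the heparan sulfate polymerase subunit EXT1 rose and the exostosin-like genes EXTL1 and EXTL2 fell after SMARCB1 induction. EXT1 and EXT2 together form the polymerase that extends heparan sulfate, EXTL3 adds the sugar that commits a chain to heparan sulfate, and EXTL2 can add a sugar that ends chain growth at the linker. EXT1 (chromosome 8, minus strand) was at 78.5 and 65.1 CPM in SMARCB1 DMSO and at 129 and 108 CPM in SMARCB1 Dox. The GFP line gave 37 and 35.8 CPM with DMSO and 34.5 and 32.6 CPM with Dox. No library of SMARCB1 Dox overlapped any other group, and the increase was 1.65-fold (log2 0.72, 95% interval 0.52 to 0.93, adjusted p = 2.07e-05). The difference from the effect in the GFP line was 0.84 (adjusted p = 0.000868).

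EXT2, its partner, was at 92.9 and 74.6 CPM in SMARCB1 DMSO and 87.3 and 91.1 CPM in SMARCB1 Dox, and did not pass the test (log2 0.09, -0.10 to 0.29). Per kb of exon, the ratio of EXT1 to EXT2 was 0.944 and 0.845 in GFP DMSO, 0.88 and 0.778 in GFP Dox, 1.62 and 1.68 in SMARCB1 DMSO and 2.85 and 2.27 in SMARCB1 Dox. The ratio was therefore below 1 in every GFP-line library and above 1 in every SMARCB1-line library, and highest with Dox. Its absolute size, and so its place above or below 1, depends on the exon lengths used (10736 bases for EXT1 and 20632 for EXT2). Its fold differences between libraries do not.

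EXTL2 (chr1:100872372-100895179, minus strand) was at 57.8 and 46.2 CPM in SMARCB1 DMSO and 30.3 and 33.2 CPM in SMARCB1 Dox. It was at 31.6 and 29.7 CPM in GFP DMSO and 31.6 and 28.6 CPM in GFP Dox. SMARCB1 DMSO was thus the group that stood apart, and the induced libraries lay near those of the GFP line. The decrease was -0.71 on the log2 scale (95% interval -0.93 to -0.49, adjusted p = 5.73e-05) and the difference from the GFP line -0.68 (adjusted p = 0.00783). This difference missed the threshold without SMARCB1 DMSO replicate 1 (-0.50, adjusted p = 0.0515), without SMARCB1 Dox replicate 1 (-0.62, 0.0541) or without GFP Dox replicate 1 (-0.61, 0.0657).

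EXTL1, a further N-acetylglucosaminyltransferase of heparan sulfate, was lower in the SMARCB1 line before induction and fell further with Dox. It was at 126 and 130 CPM in GFP DMSO, 126 and 129 CPM in GFP Dox, 63.2 and 57.3 CPM in SMARCB1 DMSO and 47.8 and 41.5 CPM in SMARCB1 Dox. No libraries of the SMARCB1 line reached those of the GFP line. The lines differed by -1.09 (adjusted p = 1.02e-09), the fall with SMARCB1 was -0.43 (adjusted p = 0.00162), and the difference between the Dox effects was -0.42 (adjusted p = 0.0507), which just missed the threshold. That difference passed it in DESeq2 (-0.41, adjusted p = 0.0376), without SMARCB1 DMSO replicate 2 (-0.49, adjusted p = 0.0277) and without SMARCB1 Dox replicate 1 (-0.52, adjusted p = 0.0299). EXTL3 rose from 147 and 132 CPM to 171 and 166 CPM (log2 0.27, adjusted p = 0.0239), with 93 to 98.5 CPM in the GFP line. Its call was lost without SMARCB1 DMSO replicate 2 (0.20, adjusted p = 0.178) and without SMARCB1 Dox replicate 1 (0.25, adjusted p = 0.12). Per kb, EXTL1 exceeded EXTL3 in the GFP line (ratios 4.66 to 5.03), less so in SMARCB1 DMSO (1.56 and 1.57), and was about level with it in SMARCB1 Dox (1.01 and 0.906). The exon length used for EXTL3 (16477 bases) exceeds that of its canonical transcript (8221). Which gene ranks higher in the SMARCB1 line therefore depends on the lengths used.

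**Figure D3:**
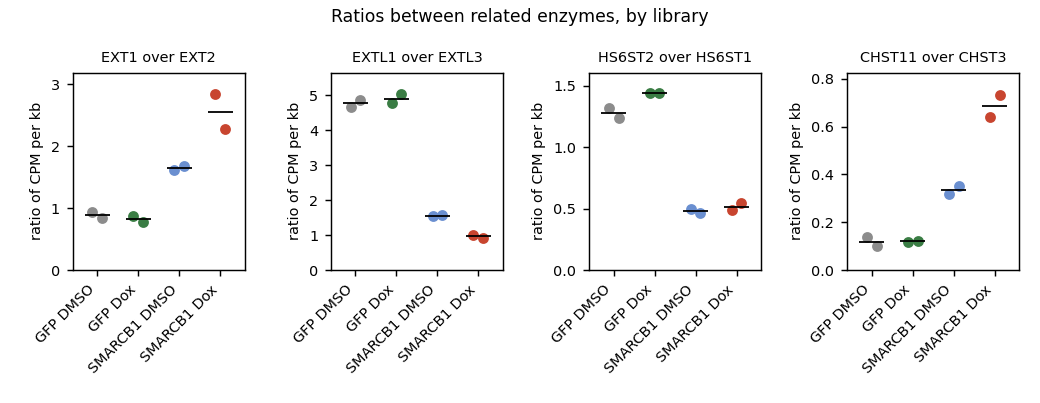
Ratios of CPM per kb of exon between pairs of related enzymes in each library (points), with group means (lines) and axes that start at 0. EXT1 over EXT2 and CHST11 over CHST3 are highest in SMARCB1 Dox, EXTL1 over EXTL3 is lowest there, and HS6ST2 over HS6ST1 is above 1 in the GFP line, higher with Dox than with DMSO there, and below 1 in the SMARCB1 line, where the treatments overlap.

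The xylosyltransferase that begins both kinds of chain was not called with SMARCB1. XYLT2 was at 21.2 and 18.1 CPM in SMARCB1 DMSO and 19.2 and 17.1 CPM in SMARCB1 Dox (log2 -0.11, -0.35 to 0.13), and was higher in SMARCB1 DMSO than in GFP DMSO (14.2 and 13.1 CPM, log2 0.52, adjusted p = 0.00156). XYLT1 had at most 2 counts in a library.

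On the chondroitin side, the synthase CHSY1 and the polymerizing factor CHPF2 rose and CSGALNACT2, which adds the committing sugar of a chondroitin chain, fell with SMARCB1. CHSY1 was at 92.2 and 82.8 CPM in SMARCB1 DMSO and 116 and 103 CPM in SMARCB1 Dox (log2 0.32, adjusted p = 0.0139), with 54.5 to 60.8 CPM in the GFP line. CHPF2 was at 48.1 and 40.4 CPM and then 59.3 and 50.3 CPM (log2 0.31, adjusted p = 0.0412), with 31.8 to 34.4 CPM in the GFP line. CSGALNACT2 went from 32.4 and 24.5 CPM to 21 and 19.2 CPM (log2 -0.49, adjusted p = 0.00655), against 21.1 and 20.6 CPM in GFP DMSO and 16.5 and 17.9 CPM in GFP Dox. The difference between the Dox effects was not called in edgeR for CHSY1 (0.32, adjusted p = 0.167) or CHPF2 (0.36, 0.194). Nor was it for CSGALNACT2 (-0.22, 0.589), whose log2 fold change with Dox in the GFP line was -0.27. The induced libraries were the highest of all for CHSY1 and CHPF2, while for CSGALNACT2 they lay in the range of the GFP line.

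These 3 calls also depended on which libraries were kept. Again replicate 1 was the higher library in both treatments of the SMARCB1 line for all 3 genes. The calls held with the replicate number as a block, although that of CHPF2 was lost when the GC trend was removed as well. Without SMARCB1 DMSO replicate 2, CHSY1 was at log2 0.25 (adjusted p = 0.119) and CHPF2 at 0.19 (0.324), and without SMARCB1 Dox replicate 1 they were at 0.24 (0.167) and 0.18 (0.382). CSGALNACT2 missed the threshold without SMARCB1 DMSO replicate 1 (-0.27, adjusted p = 0.213) and without SMARCB1 Dox replicate 2 (-0.43, 0.062). For CHPF2, 20.33% of the exon bases overlap a gene on the opposite strand, and the strand setting of the counting was not stated. CHPF, which pairs with the synthases to build the chain and was the most abundant gene of chondroitin chain synthesis per kb, was not called with SMARCB1 (151 and 112 CPM to 162 and 123 CPM, log2 0.12, -0.12 to 0.37).

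All 4 tested genes of chondroitin chain synthesis were higher in SMARCB1 DMSO than in GFP DMSO, against 16.3% of all genes. CHPF measured 72.7 and 74.9 CPM in GFP DMSO and 68 and 71.1 CPM in GFP Dox, each below both SMARCB1 DMSO libraries (log2 difference of the lines 0.83, adjusted p = 1.11e-05). CHSY1 (0.60), CSGALNACT2 (0.44) and CHPF2 (0.41) followed. EXT1 was at 0.98 (adjusted p = 7.99e-08), the largest positive line difference in heparan chain synthesis, with EXTL2 at 0.76 and EXTL3 at 0.52. Summed per kb, chondroitin chain synthesis stood at 38.4 to 41.2 in the GFP line, 57.5 and 73 in SMARCB1 DMSO and 64.3 and 78.9 in SMARCB1 Dox. The heparan counterpart, with EXTL1 and EXTL2 falling and EXT1 and EXTL3 rising with SMARCB1, stayed between 41.9 and 49.3 in all libraries.

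Of the heparan sulfotransferases, the 3-O-sulfotransferase HS3ST3B1 had the clearest response. 3-O-sulfation is a rare late modification, known for making binding sites such as that of antithrombin or, for the HS3ST3 type, that of herpes simplex virus glycoprotein D. HS3ST3B1 (chr17:14301081-14349404, plus strand) had 65 and 85 counts in SMARCB1 DMSO and 334 and 415 in SMARCB1 Dox, or 2.23 and 2.58 CPM and 9.38 and 11.9 CPM. In the GFP line it was at 4.18 and 5.44 CPM with DMSO and 3.31 and 5.71 CPM with Dox. SMARCB1 DMSO was the lowest group and SMARCB1 Dox the highest, with no overlap with the other libraries. The increase was 4.4-fold (log2 2.14, 95% interval 1.67 to 2.60, adjusted p = 9.18e-07) and the difference from the GFP line 2.22 (adjusted p = 0.000144). Before induction the gene was lower in the SMARCB1 line than in the GFP line (adjusted p = 0.00213).

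HS3ST3A1, the closest paralog on the same chromosome, had 3 counts in all libraries together. The coding sequences of the pair, of 1173 and 1221 bases, are identical over a run of 537 bases in the second and last exon of each gene, so reads inside it fit both genes and the counts come from elsewhere in the transcripts. The first 120 bases of that run are shown to make plain how alike the genes are. They read the same in HS3ST3B1 (chr17:14345107-14345226, plus strand, hg38) and HS3ST3A1 (chr17:13496620-13496739, minus strand).
HS3ST3B1 and HS3ST3A1, shared coding run: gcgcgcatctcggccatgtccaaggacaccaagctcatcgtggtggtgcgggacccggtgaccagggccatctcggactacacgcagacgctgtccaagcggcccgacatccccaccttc

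The 250 bases before the RefSeq start (GRCh38.p14) are printed for both, 5′ to 3′ on the gene's strand, beside those of SDC4 and CHST2, which also rose more in the SMARCB1 line, and capitals mark the GC box GGGCGG on either strand (read as CCGCCC on the other).
HS3ST3B1 (chr17:14300831-14301080, plus strand): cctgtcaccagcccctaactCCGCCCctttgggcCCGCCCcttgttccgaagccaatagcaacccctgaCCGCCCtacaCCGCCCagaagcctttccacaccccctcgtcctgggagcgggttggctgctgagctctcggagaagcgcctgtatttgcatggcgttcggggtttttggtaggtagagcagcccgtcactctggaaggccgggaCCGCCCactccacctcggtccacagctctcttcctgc
HS3ST3A1 (chr17:13601930-13602179, minus strand): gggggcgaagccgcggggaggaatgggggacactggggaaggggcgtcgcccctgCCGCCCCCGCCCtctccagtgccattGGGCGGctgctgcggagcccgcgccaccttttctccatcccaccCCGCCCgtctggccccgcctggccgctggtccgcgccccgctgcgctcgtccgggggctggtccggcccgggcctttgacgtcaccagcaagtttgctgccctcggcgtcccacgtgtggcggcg
SDC4 (chr20:45348425-45348674, minus strand): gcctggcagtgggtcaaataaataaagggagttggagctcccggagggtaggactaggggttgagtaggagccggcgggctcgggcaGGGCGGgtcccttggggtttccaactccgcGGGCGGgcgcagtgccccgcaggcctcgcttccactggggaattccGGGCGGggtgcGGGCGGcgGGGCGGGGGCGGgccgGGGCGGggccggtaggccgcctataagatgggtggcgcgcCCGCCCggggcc
CHST2 (chr3:143119521-143119770, plus strand): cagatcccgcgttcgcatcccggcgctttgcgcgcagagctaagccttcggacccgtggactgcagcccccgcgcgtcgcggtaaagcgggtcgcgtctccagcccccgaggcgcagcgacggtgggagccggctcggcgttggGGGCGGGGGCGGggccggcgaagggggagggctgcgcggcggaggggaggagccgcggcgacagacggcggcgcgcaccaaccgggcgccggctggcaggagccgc

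The GC box occurs 5 times before HS3ST3B1, 4 times before HS3ST3A1, 8 times before SDC4 and 2 times before CHST2. RefSeq promoters were found for 47 of the 55 members, in 60 windows, and not for CHST1, CHST5, CSGALNACT1, EXT1, EXTL3, GPC3, SDC2 and SULF1. A GC box was present in 46 of the 60 windows (76.7%), against 42.6% of 35116 promoters of the same length, and the median GC content was 69.4% against 58%. Among members with a promoter it was present in 10 of 10 genes that rose with SMARCB1, 3 of 5 that fell, 15 of 16 that were not called and 12 of 16 that were not tested. The AP-1 site TGANTCA, searched on both strands, was in 6.67% of the members' windows and 6.57% of all promoters. The TATA box TATAAA was in 6.67% and 10.7%, and the E-box CACGTG in 6.67% and 6.34%. These are letter matches and no evidence of binding.

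HS2ST1, the only heparan sulfate 2-O-sulfotransferase gene, fell with SMARCB1 from 131 and 115 CPM to 98.6 and 100 CPM, with 90.4 to 100 CPM in the GFP line (log2 -0.31, adjusted p = 0.0162). It missed the threshold without SMARCB1 DMSO replicate 1 (-0.20, adjusted p = 0.198), without SMARCB1 Dox replicate 1 (-0.29, 0.0977), without SMARCB1 Dox replicate 2 (-0.32, 0.0502) and after scaling to library totals (-0.21, 0.124). Of the 50-base stretches of HS2ST1, 10% also occur in an overlapping gene. NDST1, which starts sulfation by replacing acetyl with sulfate groups, was the most abundant sulfotransferase. It was at 586 and 550 CPM in SMARCB1 DMSO, 511 and 477 CPM in SMARCB1 Dox, 474 and 479 CPM in GFP DMSO and 467 and 443 CPM in GFP Dox. Its lower level with SMARCB1 had a log2 fold change of -0.20 and did not pass the test (adjusted p = 0.108).

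The 6-O-sulfotransferases HS6ST1 and HS6ST2 were called between the lines and in neither Dox comparison. HS6ST2 was at 66.2 and 64.8 CPM in GFP DMSO, 68.9 and 64.3 CPM in GFP Dox, 35.7 and 31.7 CPM in SMARCB1 DMSO and 34.2 and 33.6 CPM in SMARCB1 Dox. HS6ST1 was at 48.7 and 50.6, 46.3 and 43.4, 69.6 and 66.3, and 68.6 and 60.1 CPM in the same groups. The line differences were -0.96 for HS6ST2 (adjusted p = 1.1e-08) and 0.45 for HS6ST1 (adjusted p = 0.000299), in opposite directions. With SMARCB1 the log2 fold changes were 0.01 (-0.17 to 0.19) and -0.08 (-0.26 to 0.10). Per kb, HS6ST2 exceeded HS6ST1 by ratios of 1.24 to 1.44 in the GFP line and was below it at 0.464 to 0.543 in the SMARCB1 line. Of the 50-base stretches of HS6ST1, 16.7% occur in the pseudogene HS6ST1P1. HS3ST6 had 13 and 23 counts in GFP DMSO and 0 and 6 in SMARCB1 DMSO, a ratio of 5.17 (counting interval 2.16 to 15).

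The endosulfatases, which remove 6-O-sulfate groups from finished heparan chains outside the cell, were not called in any comparison. SULF2 lay between 61.4 and 69 CPM in all 8 libraries, with a log2 fold change of 0.04 with SMARCB1 (-0.14 to 0.21). SULF1 had 6 to 41 counts, and its interval of -2.02 to 0.36 leaves a wide range.

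Among the chondroitin sulfotransferases, the 4-O-sulfotransferase CHST11 rose most and the 6-O-sulfotransferase CHST3 rose slightly. CHST11 (chr12:104455295-104762014, plus strand) was at 15.1 and 15.2 CPM in SMARCB1 DMSO and 39 and 37.8 CPM in SMARCB1 Dox. It was at 10.4 and 7.71 CPM in GFP DMSO and 8.64 and 9.1 CPM in GFP Dox. Replicates of the SMARCB1 line lay close together and the groups were well apart, with a 2.53-fold increase (log2 1.34, 95% interval 1.09 to 1.59, adjusted p = 1.3e-07). The difference from the GFP line was 1.37 (adjusted p = 6.4e-05) and the line difference before induction 0.75 (adjusted p = 9.17e-05).

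CHST3 was lower in the SMARCB1 line before induction and rose with SMARCB1. It was at 80.6 and 83.3 CPM in GFP DMSO, 77.4 and 80.9 CPM in GFP Dox, 50.5 and 46.4 CPM in SMARCB1 DMSO and 65.3 and 55 CPM in SMARCB1 Dox. The induced libraries lay between those of SMARCB1 DMSO and those of the GFP line. The line difference was -0.76 (adjusted p = 6.81e-07) and the increase 0.31 (adjusted p = 0.0223), which missed the threshold without SMARCB1 DMSO replicate 2 (0.25, adjusted p = 0.14) or without SMARCB1 Dox replicate 1 (0.18, adjusted p = 0.301). Per kb, the ratio of CHST11 to CHST3 was 0.0989 to 0.138 in the GFP line, 0.318 and 0.35 in SMARCB1 DMSO and 0.638 and 0.733 in SMARCB1 Dox.

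CHST12, a further 4-O-sulfotransferase, was not called with SMARCB1 (52.6 and 42.2 CPM to 54 and 46.6 CPM, log2 0.09, -0.12 to 0.30), nor was CHST14, which sulfates dermatan (18.8 and 15.8 CPM to 20.1 and 17.2 CPM, log2 0.11). CHST7, which like CHST3 sulfates the 6-O position, went from 6.21 and 5.91 CPM to 8.6 and 6.49 CPM (log2 0.32, adjusted p = 0.244). CHST13, also a 4-O-sulfotransferase, had 10 and 11 counts before and 32 and 20 after induction, and 2 in the 4 GFP-line libraries together. Its ratio of SMARCB1 Dox to SMARCB1 DMSO was 2.18 (counting interval 1.29 to 3.81), and it did not pass the test across libraries (adjusted p = 0.212). Between the lines, CHST7 (1.11, adjusted p = 5.76e-05) and CHST12 (0.65, adjusted p = 3.68e-05) were higher in SMARCB1 DMSO, where CHST7 was above its GFP DMSO values of 2.84 and 2.79 CPM. CHST13 was 12.2 times as high in SMARCB1 DMSO as in GFP DMSO by counts (counting interval 2.98 to 107).

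**Figure D4:**
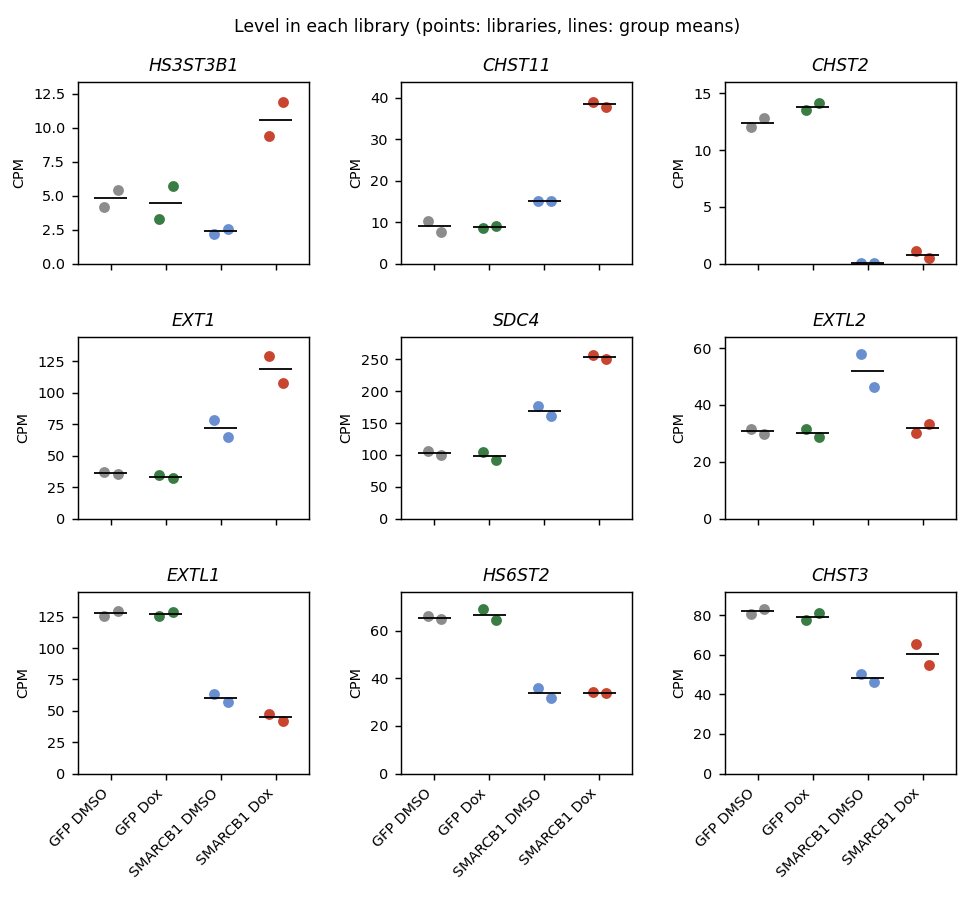
CPM in each library (points) and group means (lines) for 9 genes, with axes that start at 0. HS3ST3B1, CHST11, EXT1 and SDC4 are highest in SMARCB1 Dox, EXTL2 is highest in SMARCB1 DMSO, and CHST2, EXTL1 and HS6ST2 are higher in all 4 GFP-line libraries than in any library of the SMARCB1 line.

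CHST2 showed the widest separation of the lines. It adds sulfate to N-acetylglucosamine, as in keratan sulfate and the L-selectin ligands, and so is a CHST enzyme outside heparan and chondroitin sulfate. CHST2 (chr3:143119771-143124014, plus strand) had 406 and 492 counts in GFP DMSO, 416 and 515 in GFP Dox, 2 and 2 in SMARCB1 DMSO and 39 and 17 in SMARCB1 Dox. In CPM the GFP line gave 12 to 14.1, SMARCB1 DMSO 0.0686 and 0.0607, which is below the floor of 3 counts, and SMARCB1 Dox 1.1 and 0.486. GFP DMSO exceeded SMARCB1 DMSO 193-fold by summed counts (counting interval 75.2 to 711, fitted log2 difference -7.51, adjusted p = 8.03e-14). SMARCB1 Dox exceeded SMARCB1 DMSO 12.3-fold by summed counts, 56 against 4 (counting interval 4.56 to 46.8). The fitted log2 fold change was 3.55, and 2.85 without SMARCB1 Dox replicate 1, while its difference from the GFP line was 3.40, and 2.70 without that library. This increase was called (adjusted p = 1.42e-04), as was the difference from the GFP line (adjusted p = 0.00138), and the induced libraries remained far below every GFP-line library. CHST10, which makes the HNK-1 epitope, fell from 30.5 and 33.4 CPM to 21 and 23.3 CPM (log2 -0.53, adjusted p = 0.00107), next to the 21.4 to 24.6 CPM of the GFP line, and its difference between the Dox effects was -0.44 (adjusted p = 0.0928).

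**Figure D5:**
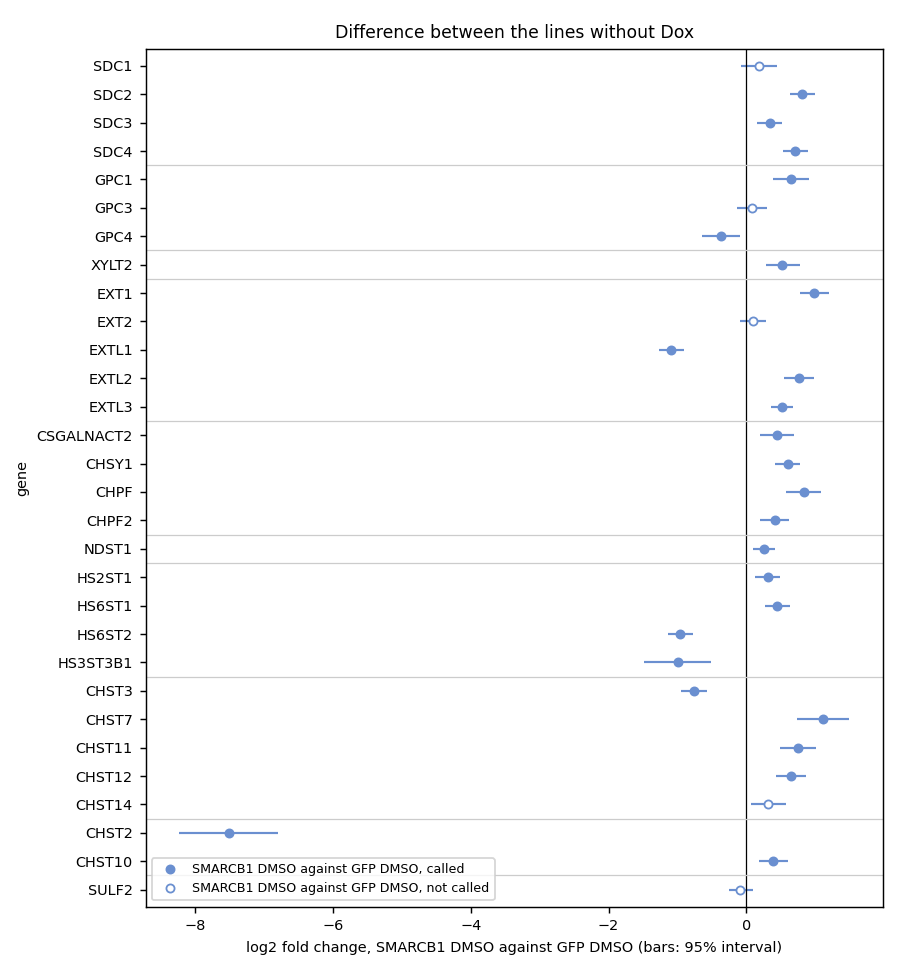
Log2 difference of SMARCB1 DMSO from GFP DMSO for the 30 tested genes whose CPM averaged 1 or more, with 95% intervals. Filled points passed an adjusted p of 0.05. CHST2 lies far to the left at -7.51, the other called genes lie between -1.09 and 1.11, and most are to the right of 0.

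The exon GC content of the genes that rose with SMARCB1 had a median of 49.6% (42.6% to 64.8%), of those that fell 38.9% (37.7% to 62.4%) and of those not called 57%. With the GC trend removed in a fit with the replicate number as a block, 20 members were called in the SMARCB1 line, 12 higher and 8 lower, against 18.7% of all genes in that fit. Between the lines, the mesenchymal marker VIM was at 678 to 755 CPM in the GFP line and 1250 to 1310 CPM in the SMARCB1 line, and KRT18 at 387 to 420 and 212 to 269 CPM. Their part in the line differences of the members was not tested.

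Outside the 55 genes, a list of 49 further genes of the pathway was examined, of which 41 were tested. With SMARCB1 5 rose and 5 fell, against 14% of all genes called, and with Dox in the GFP line 0 were called by edgeR or DESeq2 and 0 had an unadjusted p under 0.05. The 4 core proteins among the genes that rose were CSPG4 (log2 1.03, adjusted p = 1.41e-07), a chondroitin sulfate proteoglycan of the cell surface, perlecan HSPG2 (0.88, adjusted p = 1.02e-05), betaglycan TGFBR3 (0.59, adjusted p = 0.00041) and agrin AGRN (0.43, adjusted p = 0.000425). The fifth was UGDH (0.28, adjusted p = 0.038), which makes the UDP-glucuronic acid built into both chains. CSPG4 was at 64.7 and 63.7 CPM in SMARCB1 DMSO, 140 and 122 CPM in SMARCB1 Dox and 53.3 to 63.8 CPM in the GFP line, so that only the induced libraries stood apart. HSPG2 was at 28.6 and 28.5 CPM in SMARCB1 DMSO, 52.1 and 53 CPM in SMARCB1 Dox and 50.1 to 70 CPM in the GFP line.

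Of the genes that fell, 4 are described, namely SLC35B3 (-0.55, adjusted p = 0.00608) and SLC35B2 (-0.33, adjusted p = 0.0128), the transporters that bring the sulfate donor into the Golgi, BPNT2 (-0.36, adjusted p = 0.00822), which removes the spent donor and DSE (-0.32, adjusted p = 0.0157), which turns chondroitin into dermatan. These 4 calls were lost without SMARCB1 DMSO replicate 1, the library with the largest mitochondrial share (27.9%, whose part in them was not tested), where the log2 fold changes were -0.36, -0.23, -0.22 and -0.17 in the order SLC35B3, SLC35B2, BPNT2 and DSE. Leaving out SMARCB1 Dox replicate 1 also ended the calls of SLC35B3 (-0.54), SLC35B2 (-0.29) and DSE (-0.33), and leaving out SMARCB1 Dox replicate 2 those of BPNT2 (-0.32) and DSE (-0.31). UGDH was lost without either SMARCB1 DMSO library (0.28 and 0.29) or without SMARCB1 Dox replicate 2 (0.16). Dox acted differently in the lines, by the test of the difference, on CSPG4 (1.07), HSPG2 (0.73) and AGRN (0.46), against 4.71% of all genes. Between the lines 28 of the 41 genes differed, 21 higher and 7 lower in SMARCB1 DMSO, against 32% of all genes, and all 5 genes of the linkage region that joins chain and core protein were higher (0.36 to 1.70).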

How the data were processed

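The deposited files hold raw read counts per gene for 8 RNA-seq libraries, produced by the authors from STAR alignments with HTSeq (intersection-strict, exons, GENCODE v42, hg38 per the labels). Tool versions and the strand setting were not given in the sources used here. The labels name a Laceseq kit and the study's methods a directional RNA kit, so the library chemistry was uncertain. Entries naming no gene held 27% to 29.3% of reads and were left out. Reads shared by overlapping genes, or mapping to several places, count for no gene.

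Symbols, positions and exon lengths came from GENCODE v44 (hg38), which matched 62625 of 69215 identifiers, and promoters from RefSeq. The members and lists were chosen with earlier results of these data known. Named with values were all members called with SMARCB1 or for the difference, the 8 called members with the largest line difference and at least 1 CPM in a group, the most abundant member of each role and the called genes of the pathway list, of which 1 is not reported here.

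edgeR (4.0.16, R 4.3.3) fitted all 8 libraries with TMM scaling and a quasi-likelihood model of 1 mean per group. Benjamini-Hochberg adjustment ran over the 15931 genes that passed filterByExpr, separately in each of 4 comparisons. CPM used TMM-scaled totals. Intervals of count ratios are exact binomial at 95% and, like the floor of 3 counts, cover counting error only, since PCR copies are not independent molecules. Alternatives were RLE scaling, library totals, DESeq2 (1.42.0), no filter, only the libraries compared, a replicate block with and without removal of a GC trend, removal of mitochondrial genes and leaving out each library. The steps were tested on simulated counts.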

Additional observations from a re-analysis of the deposited data

Results flagged for a closer look

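The effect of Dox differed between the SMARCB1 line and the GFP line, by a test of the difference itself, for 6 of the 36 tested members. It also differed for 3 of the 41 tested genes of the pathway list. These were 16.7% of the tested members and 7.32% of the tested pathway genes, against 4.71% of all genes tested. The difference in log2 fold change was 3.40 for CHST2, 2.22 for HS3ST3B1, 1.37 for CHST11, 0.84 for EXT1, 0.66 for SDC4 and -0.68 for EXTL2. For CSPG4 it was 1.07, for HSPG2 0.73 and for AGRN 0.46. In edgeR's quasi-likelihood test the adjusted p ranged from 3.05e-05 for CSPG4 to 0.0141 for AGRN. CHST2 rested on 4 counts in SMARCB1 DMSO, and HSPG2 rose in SMARCB1 Dox to within the range of the GFP line. Groups of 2 libraries are too small to flag a single library.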

How the results depend on the processing

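Across 44 named gene results and their alternatives, 499 of 555 values kept direction and call, 56 kept direction and lost the call, and 0 reversed. With SMARCB1, CHST11, HS3ST3B1, CHST2, EXT1, SDC4, EXTL2, EXTL1 and CHST10 were called under all 12 alternatives. The 17 members called there ranged from 9 to 16 when a library was left out, where a lone library is assumed to vary like the other groups. There were 10 without SMARCB1 DMSO replicate 2 and 9 without SMARCB1 Dox replicate 1, and the 7 genes CHPF2, CHST3, CHSY1, EXTL3, GPC1, GPC4 and SDC1 were lost in both. DESeq2 called 14, against 13% of all genes, without SDC1 (adjusted p = 0.0719), GPC4 (0.253) and CHPF2 (0.0583). The fit of only the libraries compared called 13, against 11.5% of all genes. With a library left out, the 6 members called for the difference kept its direction. The log2 values were 0.56 to 0.76 for SDC4 and -0.84 to -0.50 for EXTL2, the called members with the smallest differences. The 8 members named between the lines kept their direction too, as did the pathway genes named with SMARCB1 or for the difference. Calls were lost in some of these fits, where the share of all genes called changed as well. AGRN and HSPG2 lost the difference without GFP DMSO replicate 2 (0.43 and 0.52) and without GFP Dox replicate 1 (0.44 and 0.60), and AGRN also without GFP Dox replicate 2 (0.47). In the GFP line 0 members were called under every alternative.

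With the replicate number as a block, 13 members were called for the difference between the Dox effects, against 8.05% of all genes, and 10 with the GC trend removed as well, against 7.63%, where the fit without the block called 4.71%. For pathway genes these counts were 5 and 6. HS6ST1 (-0.21), NDST1 (-0.27), SDC2 (0.20) and SDC3 (-0.25) were called with SMARCB1 in the fit with block and GC trend removed. Same-numbered libraries deviated together with correlations of 0.0309 to 0.148, all positive and largest between SMARCB1 DMSO and SMARCB1 Dox. The main fit did not take the numbers to pair the samples. This choice affects the calls, since with the block 19.8% of all genes were called for the SMARCB1 Dox effect, against 14% without it. Scaling to library totals moved the median of all genes to 0.088 for the SMARCB1 Dox effect and -0.101 between the lines. Where not stated, the cause of a changed count was not tested. Genes with few counts had intervals too wide to show moderate changes, such as GPC2, GPC5 and HS3ST6 (at most 24 in a library) and CHST13 (at most 32).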

Other observations

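Some genes of the wider pathway differed more between the lines than most members did, and these were chosen after their values were seen. Those given here were all higher in SMARCB1 DMSO, whereas 7 of the 41 tested pathway genes were lower, against 15.7% of all genes. The log2 differences reached down to -2.26. Of the 5 tested core proteins of chondroitin or dermatan sulfate, 3 were lower and 1, VCAN, was higher. TGFBR3, betaglycan, was at 7.58 and 8.88 CPM in GFP DMSO and 49.5 and 39.9 CPM in SMARCB1 DMSO (log2 2.44, adjusted p = 1.78e-13 in edgeR's quasi-likelihood test). DSE, the dermatan epimerase, was at 50 and 45.4 CPM against 201 and 166 CPM (log2 1.94, adjusted p = 1.52e-13). GLCE, the epimerase of heparan sulfate, was at 9.42 and 9.17 CPM against 33.8 and 26.3 CPM (log2 1.69, adjusted p = 2.48e-10). VCAN, versican, a chondroitin sulfate proteoglycan of the matrix, was at 470 and 512 CPM against 1040 and 997 CPM (adjusted p = 2.34e-08). With Dox these genes kept apart by line, at 8.33 and 9.19 against 66.9 and 67 CPM for TGFBR3, 45.4 and 45.6 against 146 and 147 CPM for DSE, 8.28 and 9 against 31.7 and 33.2 CPM for GLCE and 499 and 522 against 811 and 1050 CPM for VCAN.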
